A study of Mus musculus with 9 samples.

Results

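The shortest cassette exons of mouse N2A neuroblastoma cells, those of 3 to 15 nt, were followed through 4 knockdowns. They were taken from the splicing tables as every cassette exon event whose listed length is 3 to 15 nt, a rule that uses no measured value. The tables list 525 such microexons, in 473 genes, among 54141 cassette exons. At least 10 informative reads in every library of an experiment were found for 351 of them in the Srrm4 and Zfp871 experiment and for 358 in the Mbnl and Nacc1 experiment. For 161 the reads were too few in both experiments, and nothing is said of their splicing here.

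In the Srrm4 and Zfp871 experiment 2 libraries each were made from N2A cells transfected with siRNA pools against Srrm4, with siRNA pools against Zfp871, and with a non-targeting pool as control. In the Mbnl and Nacc1 experiment there is a single library for each of 3 groups: cells depleted of both Mbnl1 and Mbnl2, cells depleted of Nacc1, and cells given the non-targeting pool. All cells were harvested 48 hours after transfection, and polyA RNA was sequenced. N2A is an established line, so every group is the same tumour cell line under a transient, partial knockdown, and it stands for no particular neuron. The column names distinguish the libraries of a group by the letters a and b. Nothing in the labels says that these were separate cultures, so the p-values below measure only the spread between these libraries.

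Microexons are exons so short that the splicing machinery needs help to define them. In neurons much of that help comes from SRRM4, also called nSR100, which binds a UGC-containing element between the polypyrimidine tract and the acceptor site and promotes inclusion. PTBP1 represses many of the same exons in other tissues, and RBFOX, NOVA, MBNL and CELF proteins act on others from the flanking introns. Microexons of a length divisible by 3 add a few residues to a protein without moving the reading frame, often at the surface of a protein interaction domain.

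The sequences below belong to the microexons on which the results turn. They were read from GENCODE M21 transcripts (build GRCm38) after matching chromosome, strand, exon length and both flanking intron lengths, while the coordinates are those of the deposited tables (mm9). Of the 525 microexons, 219 matched an annotated exon on both sides, 207 of them inside coding sequence. The 6-nt exon of Snap91, the 12-nt exon of Scyl2 and the 4-nt exon of Asap2 had no coding match and are shown without sequence. Capitals mark the microexon and lower case the 18 bases of each neighbouring exon in the spliced transcript, written 5′ to 3′ on the gene's strand.
Vav2, 15 nt, chr2:27140359-27140373, minus strand: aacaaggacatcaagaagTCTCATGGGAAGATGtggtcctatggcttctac
Vav2, 15 nt, chr2:27155950-27155964, minus strand: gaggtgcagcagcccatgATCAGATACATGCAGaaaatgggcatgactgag
Pacsin2, 6 nt, chr15:83214053-83214058, minus strand: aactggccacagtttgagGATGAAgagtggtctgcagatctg
Myo5a, 9 nt, chr9:75035329-75035337, plus strand: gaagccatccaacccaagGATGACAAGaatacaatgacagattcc
Ergic3, 15 nt, chr2:155841113-155841127, plus strand: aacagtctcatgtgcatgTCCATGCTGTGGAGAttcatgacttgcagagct
Chchd3, 15 nt, chr6:32843392-32843406, minus strand: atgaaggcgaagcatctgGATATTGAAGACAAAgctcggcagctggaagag
Git2, 6 nt, chr5:115203157-115203162, minus strand: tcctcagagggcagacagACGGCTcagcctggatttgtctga
Spna2, 15 nt, chr2:29869678-29869692, plus strand: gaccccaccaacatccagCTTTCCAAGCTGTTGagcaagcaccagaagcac
L1cam, 12 nt, chrX:71100991-71101002, minus strand: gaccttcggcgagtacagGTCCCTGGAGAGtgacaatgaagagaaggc
L1cam, 15 nt, chrX:71112361-71112375, minus strand: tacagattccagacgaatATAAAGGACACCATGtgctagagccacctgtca
Kdm1a, 12 nt, chr4:136119353-136119364, minus strand: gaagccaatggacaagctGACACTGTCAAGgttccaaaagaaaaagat
Tead1, 12 nt, chr7:119999567-119999578, plus strand: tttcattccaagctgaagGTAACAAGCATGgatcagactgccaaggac
Celsr3, 15 nt, chr9:108741091-108741105, plus strand: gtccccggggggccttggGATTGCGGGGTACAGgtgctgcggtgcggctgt
Each of these lengths is divisible by 3, so the exons keep the reading frame. The transcripts that matched the Vav2 exons are annotated as subject to nonsense-mediated decay, and the others as protein coding. In both Vav2 exons and in those of Pacsin2, Myo5a, Chchd3, Spna2 and Tead1 the microexon starts at a codon boundary, while the exons of Ergic3, Celsr3, Kdm1a, the 15-nt exon of L1cam, Git2 and the 12-nt exon of L1cam split a codon.

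Among all 525 microexons listed, 78.7% have a length divisible by 3. Codon positions of the 207 matched coding ones were counted from the first annotated coding base. By that count 86 follow a complete codon, 75 follow 1 base of a codon and 46 follow 2 bases of a codon. Among 178 coding microexons of a length divisible by 3 with coding flanks, it gave 3 a stop codon that holds microexon bases. These counts are therefore approximate. Genes with more than a single tested microexon numbered 11, among them Vav2, L1cam, Snap91, Taf1 and Ncam1. Upstream and downstream introns, from the deposited coordinates, had medians of 1548 and 1156 nt for the 52 microexons with both introns defined that were lower after Srrm4 knockdown by the rule given below. The medians were 1334 and 1560 nt for 118 other tested microexons.

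Each percent spliced in (PSI) below is 100 times the inclusion reads over inclusion plus exclusion reads, so it is the share of informative reads that include the exon. Gene counts per library came to 44186088 to 61159670 in the Srrm4 and Zfp871 experiment and 50086176 to 63715449 in the Mbnl and Nacc1 experiment. The reads on the microexons themselves were 105451 to 144630 and 84888 to 104304 per library, with a median of 104 to 154 and 113 to 128 per tested microexon. N2A identity was checked on marker genes: the pan-neuronal Tubb3 stood at 1010 CPM or more in every library and the sympathetic factor Hand2 at 440 to 708 CPM, whereas the astrocytic Aqp4 was at 0 and the immune Ptprc and Aif1 at no more than 0.05 CPM.

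The knockdowns themselves were read from the gene counts. Srrm4 stood at 28.3 and 26.1 CPM in the Srrm4 knockdown libraries a and b, against 66.8 and 96.7 CPM in the controls (log2 fold change -1.59, edgeR quasi-likelihood adjusted p = 0.0222). Zfp871 stood at 7.17 and 5.08 CPM in the Zfp871 knockdown and 17.6 and 26.2 CPM in the controls (log2 fold change -1.84, adjusted p = 0.0271). Mbnl1 was at 45.2 CPM and Mbnl2 at 18.2 CPM after the double knockdown, against 124 and 65.7 CPM in the control, and Nacc1 at 52 CPM after its own knockdown, against 208 CPM. Each targeted gene was lower in the libraries labelled for it, and none was removed. With 1 library left out the adjusted p ranged from 0.0437 to 0.152 for Srrm4 and from 0.0404 to 0.247 for Zfp871. Srrm4 stayed called only without Srrm4 knockdown library a or control library a, and Zfp871 only without either Srrm4 knockdown library or control library a.

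In the control cells nearly all reads skipped many of these microexons. In the control libraries of the Srrm4 and Zfp871 experiment, 162 of 351 microexons (46.2%) had a mean PSI under 2 and 36 (10.3%) a mean PSI over 98. Among 36168 cassette exons over 27 nt, 11.6% were under 2 and 54.5% over 98. The 3-nt class was the most skipped of those of a length divisible by 3: 42 of its 64 microexons (65.6%) were under 2, against 34.5% of the 29 microexons of 6 nt and 31.5% of the 73 of 12 nt. Where the length is not divisible by 3, 42 of 68 microexons (61.8%) were under 2. Over 345 microexons, many of them near 0 or 100, the controls of the experiments differed by a median of 0.67 points. Over the 172 tested in both, that median was 2.28 points, 10 differed by 10 points or more and 2 by 20 or more. Libraries a and b of the controls in the Srrm4 and Zfp871 experiment differed by a median of 2.6 points over 210 tested microexons. The 15-nt exon of Eea1, an endosome tethering protein, stood at 34.1 in the control of the Mbnl and Nacc1 experiment and at 51 and 54.7 in the controls of the other.

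**Figure D1:**
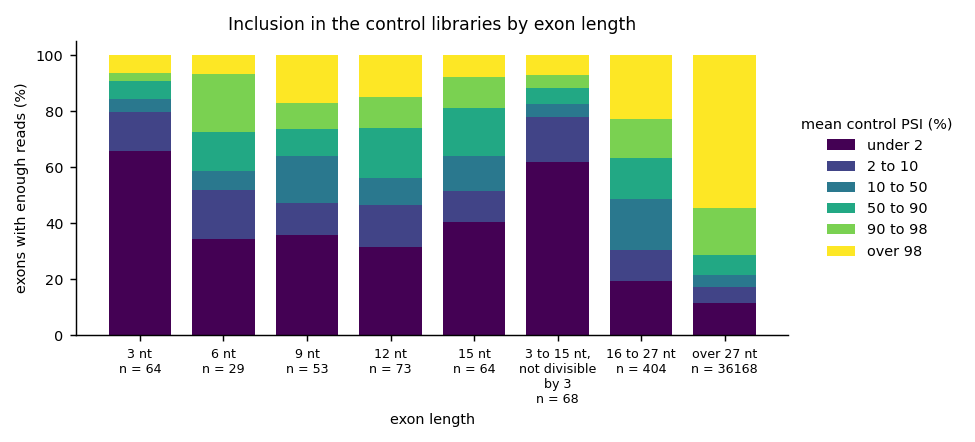
Stacked bars give the share (%) of exons in each class of mean control PSI, by exon length, for exons with at least 10 reads in all 6 libraries of the Srrm4 and Zfp871 experiment (n under each bar). Microexons of 3 nt and those of a length not divisible by 3 are mostly under 2% included (65.6% and 61.8%), whereas 54.5% of exons over 27 nt are over 98% included.

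Examples span the whole range. The locus 1700106N22Rik carries a tested 3-nt exon at the lowest possible control level, 0 in both control libraries, which a Tns1 exon given below shares. Apbb3, an adaptor of the amyloid precursor protein family, carries a 6-nt exon at the highest possible level, 100 in both. Kdm1a encodes a histone demethylase whose 12-nt exon marks the neuronal isoform in mammals. In N2A cells that exon reached 2.73 and 5.55 in the controls of the Srrm4 and Zfp871 experiment, so the neuronal form was a minor one.

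To be compared between groups, a microexon also needed a PSI of 2 to 98 in at least 1 library, which 210 met in the Srrm4 and Zfp871 experiment and 193 in the Mbnl and Nacc1 experiment. The 141 that dropped out had a PSI under 2 or over 98 in every library: 126 had a mean control PSI under 2 and 15 over 98. Of the 210, 140 met the condition in every group, 11 through the Srrm4 knockdown alone, 11 through the Zfp871 knockdown alone and 16 through the controls alone. Lengths divisible by 3 made up 84.3% of the 210, against 39.8% of the tested exons over 27 nt.

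Knockdown of Srrm4 asks which microexons depend on this activator. Inclusion fell for 9 of the 210 tested microexons and rose for none: both 15-nt exons of Vav2, and exons in Snap91, Scyl2, Pacsin2, Myo5a, Asap2, Ergic3 and Chchd3. A call needed an adjusted p under 0.05 in the quasi-likelihood test of edgeR, fitted on 20266 cassette exons of all lengths, and mean PSI values at least 10 points apart. That rule called 25 exons lower, a background of 0.123%, and 0 higher, 0%. The microexons gave 9 of the 25 calls, 4.29% of their own number. At an unadjusted p under 0.05 the same test found 77 microexons lower (36.7%) and 2 higher (0.952%), against 3.49% and 2.22% of all exons. These calls rest on the whole set of libraries: none was left without either Srrm4 knockdown library or either control library, and 2 were left without either Zfp871 knockdown library, although all 9 stayed lower in each of these fits. The sympathetic factor Hand2 also fell, to 485 and 440 CPM in the Srrm4 knockdown, against 708 and 640 CPM in the controls (log2 fold change -0.54, adjusted p = 0.0367). That call was lost with any single library left out (adjusted p = 0.0747 to 0.23), and its part in the splicing differences was not tested.

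The largest change was in Vav2, a guanine nucleotide exchange factor that activates small GTPases downstream of tyrosine kinases. Its exon at chr2:27140359-27140373 had a PSI of 19.7 and 17.1 in Srrm4 knockdown libraries a and b, against 84.4 and 79.9 in the controls. The means were 18.4 ± 1.85 and 82.2 ± 3.12 (SD, n = 2 each), a difference of -63.7 points (adjusted p = 0.0314). Its other microexon had 29.9 and 20 in the knockdown, against 85.5 and 83.9 in the controls (difference -59.8 points, adjusted p = 0.0314). In both Vav2 exons the main isoform thus differed between the groups, with inclusion prevailing in the controls and skipping in the knockdown.

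In the endocytosis and vesicle traffic list 4 microexons fell. Snap91 encodes AP180, which assembles clathrin coats at synapses; its 6-nt exon stood at 22.8 and 15.2 in the Srrm4 knockdown, against 69.7 and 75.1 in the controls (difference -53.4 points, adjusted p = 0.0164). The 12-nt exon of Scyl2, a clathrin-associated pseudokinase, stood at 47.1 and 33.9, against 88.9 and 91.5 (difference -49.7 points, adjusted p = 0.0442). Pacsin2, a membrane-bending F-BAR protein, had its 6-nt exon at 10.6 and 5.67, against 47.1 and 50.4 (difference -40.6 points, adjusted p = 0.0278). For all 3 the lowest control lay well above the highest knockdown library. The 15-nt exon of Ergic3, a cargo receptor between endoplasmic reticulum and Golgi, was at 10.2 and 7.58, against 43.1 and 47.6 (difference -36.5 points, adjusted p = 0.028).

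The other calls were in a motor, a GTPase-activating protein and a mitochondrial protein. Myo5a encodes the vesicle motor myosin Va; its 9-nt exon was almost always included in the controls, at 98 and 98.5, and stood at 61.9 and 54.6 in the Srrm4 knockdown (difference -40 points, adjusted p = 0.00793). Asap2, a GTPase-activating protein for ARF, carries a 4-nt exon at 53.3 and 53.7, against 91.8 and 94.8 (difference -39.8 points, adjusted p = 0.0442). Its length is not divisible by 3, but no coding exon was matched to it, so an effect on the reading frame was not established. Chchd3 encodes a subunit of the complex that shapes mitochondrial cristae. Its 15-nt exon had the smallest difference of the 9 and the lowest adjusted p: 81.7 and 78.5 in the knockdown, against 99 and 99.1 in the controls (difference -18.9 points, adjusted p = 0.00456), on 952 to 1406 reads per library.

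**Figure D2:**
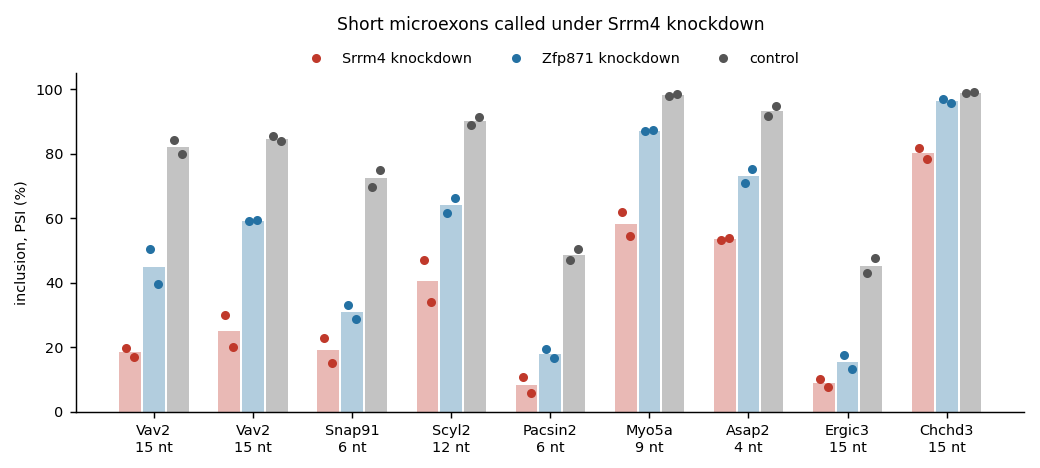
Inclusion (PSI, %) of the 9 microexons called after Srrm4 knockdown, with 1 point per library, bars at the group mean (n = 2) and, from left to right in each set, Srrm4 knockdown, Zfp871 knockdown and control. Srrm4 knockdown libraries lie lowest and controls highest in all 9, with Zfp871 knockdown libraries between, as in the first Vav2 exon at 18.4, 45 and 82.2 on average. The 9 were chosen for lower inclusion after Srrm4 knockdown, and both knockdowns share the controls, so this order is no independent result.

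Many more microexons had groups that stood apart without reaching the call. Counting exons whose knockdown libraries both lay on the same side of both controls with a difference of at least 10 points, 64 of 210 microexons (30.5%) were lower and 3 (1.43%) higher after Srrm4 knockdown. Over all 20266 tested exons the same count gave 2.6% lower and 1.88% higher. With any single library of this contrast left out, 60 to 69 microexons were lower by that rule. The 64 had a median difference of -24.5 points, and 58 of them (90.6%) have a length divisible by 3. Their mean control PSI spanned 13.5 to 100 and was at least 50 for 46. A likelihood ratio test in edgeR, which takes no account of the uncertainty of each exon's spread, called 56 microexons lower and 1 higher, against 1.12% and 0.271% of all exons. DESeq2 called 25 lower (11.9%) and 0 higher, against 0.4% and 0% of all exons.

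The median difference over all 210 microexons was -2.8 points and 74.3% lay below the control, against a median of 0 and 47.2% over all tested exons. Over all 351 microexons with enough reads, most of the added ones near 0, the median difference was -0.31 points. Over the 210 it was -2.69 between the libraries with letter a and -3.95 between those with letter b. Microexons that controls include at 10 to 98 have room to fall. Over those 104 the median difference was -12.4 points and 57 were lower and apart, against a median of 0.681 over 10524 exons of the same control range. Control levels within that range were not matched. A mean control PSI of 90 to 98 was found for 31 of the 104 microexons and for 6060 exons over 27 nt.

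The differences varied with length. After Srrm4 knockdown 11 of 21 tested microexons of 6 nt were lower and apart, 21 of 46 of 15 nt, 13 of 44 of 12 nt, 11 of 37 of 9 nt and 2 of 29 of 3 nt. Of the 33 of other lengths, 6 were. The 3-nt class had the lowest control inclusion, with a median of 4.51 among those tested against 81.4 in the 6-nt class, so that its members had less room to fall. The 2 of 3 nt were in Mon2, which acts in endosome to Golgi traffic, at 3.21 and 6.93 in the Srrm4 knockdown against 36.7 and 41 in the controls, and Tbc1d4, a RAB GTPase-activating protein of glucose transporter vesicles, at 7.58 and 3.24 against 37.2 and 29.9. Both were singled out after their values were seen. At the upper limit of length, 15-nt microexons had a median difference of -5.48 points (n = 46), 16-nt ones -2.91 (n = 6) and 18-nt ones -6.24 (n = 36). The 300 tested microexons of 16 to 27 nt gave 9 calls (3%), 27.3% lower and apart, and a median of -2.44 points, against 30.5% and -2.8 points in the shortest ones; no test of that difference was run.

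**Figure D3:**
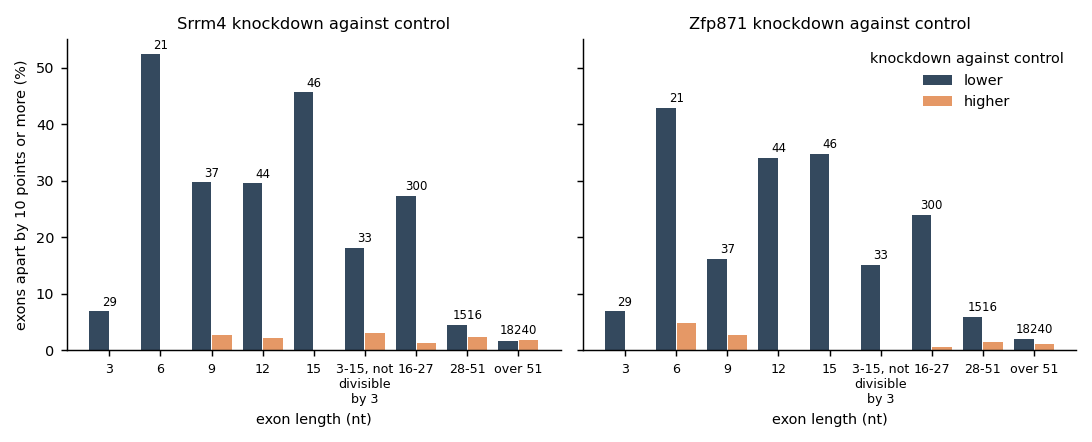
Share (%) of tested exons whose knockdown libraries both lie below (dark) or above (light) both controls with a difference of at least 10 points, by exon length, with the number tested above each pair of bars; Srrm4 knockdown is on the left and Zfp871 knockdown on the right. After Srrm4 knockdown 11 of 21 microexons of 6 nt and 2 of 29 of 3 nt are lower, while of 18240 exons over 51 nt 313 are lower and 339 higher; after Zfp871 knockdown those longer exons give 372 lower and 208 higher.

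The counts by role can be read against the 30.5% of all 210 microexons and 2.6% of all exons that were lower and apart after Srrm4 knockdown. Among 13 tested microexons of small GTPase regulators, 8 were lower and apart after Srrm4 knockdown and none higher, with a median difference of -24.9 points. Git2, an ARF GTPase-activating scaffold of focal adhesions, had its 6-nt exon at 33.1 and 22.7, against 84 and 78.9 in the controls, a difference of -53.6 points that missed the threshold (adjusted p = 0.126). Rapgef6, an exchange factor for RAP GTPases, had its 15-nt exon at 6.09 and 6.23, against 45.9 and 34 (adjusted p = 0.265). Asap1, a paralogue of Asap2, had its 9-nt exon at 69.7 and 57.1, against 91.9 and 94.5 (adjusted p = 0.139). In these 3 the groups did not overlap.

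Of 15 microexons of endocytosis and vesicle traffic, 8 were lower and apart and none higher, with a median of -19.9 points. Beside the 4 called ones, Hook3, an adaptor that joins dynein to its cargo, had its 6-nt exon at 53 and 50 in the Srrm4 knockdown, against 81.2 and 85.5 in the controls. The second microexon of Snap91, of 15 nt, was at 65.9 and 53.1, against 87.1 and 80. Both of the synaptic coat protein's microexons were thus lower, but only the 6-nt one was called (adjusted p = 0.385 for the other). The lists of vesicle traffic, GTPase and other genes were drawn up with results of these data known, so their counts are no independent evidence.

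Of 16 microexons of the cytoskeleton and its motors, 7 were lower and apart, with a median of -5.97 points. Spna2 encodes alpha II spectrin, a rod of the membrane skeleton; its 15-nt exon stood at 44 and 39.6 in the Srrm4 knockdown, against 73.3 and 71.3 in the controls (adjusted p = 0.0578). The 15-nt exon of Dctn1, the largest dynactin subunit, was at 30.4 and 29.7, against 63.6 and 62.5 (adjusted p = 0.196). Ppfia2 encodes liprin alpha 2, a scaffold of the presynaptic active zone, and its 9-nt exon was at 6.6 and 0, against 27.4 and 50.2 (adjusted p = 0.587). Its controls differed by over 20 points from each other. The kinesin subunit gene Kif3a had its 9-nt exon at 81.1 and 76.5, against 91.1 and 89.8 (adjusted p = 0.79), and Ank2, an adaptor between membrane proteins and spectrin, its 12-nt exon at 38.6 and 50.5, against 52.8 and 71.8 (adjusted p = 0.86).

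Of 11 microexons of adhesion molecules and cell surface receptors, 4 were lower and apart and none higher, with a median of -2.92 points. That was near the 30.5% and the median of -2.8 points over all 210 microexons. L1cam, a neural adhesion molecule of axon growth, contributed both of its neuronal microexons: the cytoplasmic 12-nt exon was at 31.1 and 26.7, against 58.4 and 56.5 (adjusted p = 0.1), and the extracellular 15-nt exon at 72.5 and 67.8, against 88 and 93.7 (adjusted p = 0.248). Lphn2, an adhesion G protein-coupled receptor, had its 12-nt exon at 3.92 and 6.16, against 30.2 and 22.9 (adjusted p = 0.36). Ptprs, a receptor phosphatase whose mini-exons tune its binding to synaptic partners, had a 9-nt exon at 2.99 and 2, against 11.6 and 25.5 (adjusted p = 0.265). The 3-nt exon of the adhesion molecule Ncam1 showed no such pattern, at 69.1 and 74.7, against 68.2 and 74.3; it was singled out as a contrast after its values were seen.

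Among 7 microexons of transcription, chromatin, RNA and translation genes, 3 were lower and apart, with a median of -7.59 points. Mta1, a subunit of the NuRD chromatin complex, had its 12-nt exon at 53.1 and 52.5, against 77.4 and 82.4 (adjusted p = 0.119). The 6-nt exon of Apbb1, the FE65 adaptor of the amyloid precursor protein, was at 79.8 and 77.3, against 94.1 and 96 (adjusted p = 0.121). The 6-nt exon of Taf1, which marks the neuronal form of this basal transcription factor, was at 5.51 and 6.33, against 17.9 and 15.5 (adjusted p = 0.684). In the list of kinases, phosphatases and scaffolds 1 of 4 was lower and apart, the 9-nt exon of the postsynaptic scaffold Shank2 at 35 and 24.1, against 48 and 37.4 (adjusted p = 0.897), and the list's median was -0.454 points. Microexons in none of the lists numbered 144, of which 33 were lower and apart and 3 higher, with a median of -1.91 points.

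The 3 microexons that stood higher after Srrm4 knockdown were named after their values were seen. They lie in Brp44l, which encodes a mitochondrial pyruvate carrier subunit (4 nt, 31.1 and 36.1, against 9.29 and 15.8), Iffo1, which encodes an intermediate filament protein (9 nt, 54 and 62.6, against 46.9 and 42.8), and Tmem209, which encodes a nuclear envelope protein (12 nt, 91.6 and 94.5, against 82.5 and 82.8). None was called by the quasi-likelihood test.

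Zfp871 encodes a zinc finger protein, and its knockdown belongs to the question in the study's title, whether transcription factors bear on splicing networks. No microexon was called under Zfp871 knockdown by the edgeR quasi-likelihood test, and neither was any of the 20266 exons, 0% in either direction. At an unadjusted p under 0.05, 50 microexons were lower (23.8%) and 1 higher (0.476%), against 3.35% and 1.32% of all exons. The likelihood ratio test called 36 lower and 0 higher, against 0.819% and 0.0938% of all exons, and DESeq2 called 9 lower (4.29%) and 0 higher, against 0.109% and 0% of all exons. By the rule of groups apart, 53 of 210 microexons (25.2%) were lower and 2 (0.952%) higher, against 2.9% and 1.16% of all exons. With any single library of this contrast left out, 50 to 62 were lower by that rule. The median difference was -2.8 points, with -2.74 between the libraries of letter a and -4.4 between those of letter b, against -0.268 over all tested exons, and 78.6% of the microexons lay below the control. Over all 351 microexons with enough reads the median difference was -0.356 points. The 300 tested microexons of 16 to 27 nt had 24% lower and 0.667% higher by the rule of groups apart. Their median difference was -3.13 points, so the shortest microexons did not stand out from the longer ones.

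Srrm4 itself stood at 44.9 and 53.7 CPM in the Zfp871 knockdown, against 66.8 and 96.7 CPM in the controls, a log2 fold change of -0.73 that was not called in a fit with no term for the column letter (adjusted p = 0.099). Other markers moved with this knockdown as well. The noradrenergic genes Dbh, at 22.9 and 15.9 CPM against 110 and 72.9 CPM, and Phox2a, at 103 and 71.9 CPM against 259 and 206 CPM, fell (adjusted p = 0.0232 and 0.0298). The neuronal gene Stmn2, a microtubule regulator of growing axons, fell to 446 and 397 CPM, against 631 and 587 CPM (log2 fold change -0.53, adjusted p = 0.0481). Dbh and Phox2a stayed called without either Srrm4 knockdown library and were lost without any of the other 4, and Stmn2 was lost without any single library. The sum of 5 neuronal markers was 2500 and 2650 CPM in the Zfp871 knockdown, 2590 and 2710 CPM in the Srrm4 knockdown and 2960 and 2850 CPM in the controls. Over the 7 sympathetic markers the sum was 952 and 915 CPM in the Zfp871 knockdown, 976 and 877 CPM in the Srrm4 knockdown and 1360 and 1180 CPM in the controls. The sum of 4 mesenchymal markers was 30 and 102 CPM in the Zfp871 knockdown, 1.7 and 7.23 CPM in the Srrm4 knockdown and 4.62 and 15.5 CPM in the controls. In the Zfp871 knockdown nearly all of it was the smooth muscle actin gene Acta2, at 29.1 and 102 CPM against 3.54 and 14.3 CPM (adjusted p = 0.178 in the same fit), while the collagen genes Col1a1 and Col1a2 stayed at or below 0.239 CPM in all 9 libraries. Their part in the splicing differences was not tested. With the bulk RNA of a culture, a smaller share of cells that include an exon and less inclusion in each cell cannot be told apart.

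The 10 largest differences under Zfp871 knockdown all lay below the control, and none was called. Tmco4, which encodes a transmembrane protein, had its 14-nt exon at 26.3 and 23.6 in the Zfp871 knockdown, against 65.1 and 68.3 in the controls. The 6-nt exon of Snap91 was at 33 and 28.6, against 69.7 and 75.1 (adjusted p = 0.291). Hook2, a microtubule-binding relative of Hook3, had its 6-nt exon at 50 in both, against 88.2 and 90. These 3 differed by -41.7, -41.5 and -39.1 points, and in none did the groups overlap. The others were Vav2 (15 nt, -37.2 points), Git2 (-33.5), Rapgef6 (-33.1), the early endosome tether Eea1 (15 nt, -32.6), the Hedgehog co-receptor Cdon (14 nt, -31.1), the BBSome subunit Bbs9 (15 nt, -30.8) and Pacsin2 (-30.7). Under Srrm4 knockdown the same 10 differed by -33.8 to -63.7 points; both knockdowns are set against the same 2 control libraries, so the values are given side by side only.

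The 2 microexons that were higher and apart after Zfp871 knockdown, named after their values were seen, lie in Iffo1 (55 and 62.2, against 46.9 and 42.8) and in the focal adhesion protein gene Tns1 (6 nt, 7.06 and 14.7, against 0 and 0). With both controls at 0, the Tns1 exon could enter the comparison only through knockdown libraries. By role, 8 of 15 microexons of endocytosis and vesicle traffic were lower and apart, 7 of 13 of GTPase regulators, 6 of 11 of adhesion molecules and receptors, 4 of 16 of the cytoskeleton, 4 of 7 of the transcription and RNA list, 0 of 4 of the kinase and scaffold list, and 24 of 144 in no list. The share over all 210 microexons was 25.2%, and over all exons 2.9%. L1cam was among the lower ones. Its 12-nt exon stood at 31.7 and 31.2, against 58.4 and 56.5, and its 15-nt exon at 67.6 and 72.6, against 88 and 93.7. By length, 9 of 21 microexons of 6 nt were lower and apart, 16 of 46 of 15 nt, 15 of 44 of 12 nt, 6 of 37 of 9 nt, 2 of 29 of 3 nt and 5 of 33 of other lengths.

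**Figure D4:**
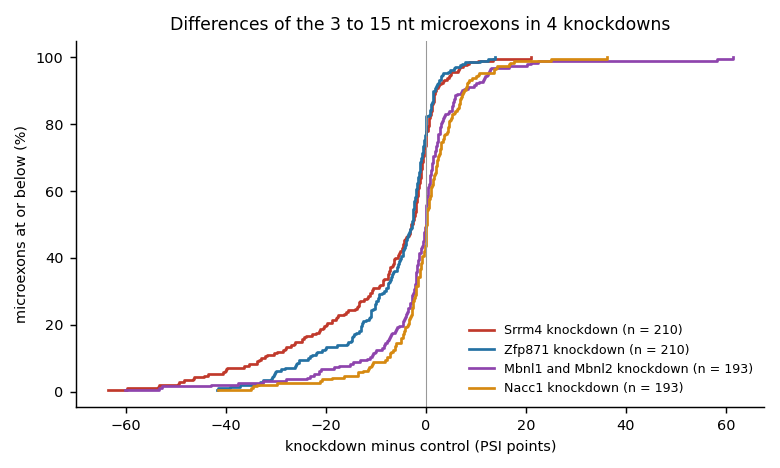
Cumulative share (%) of the tested microexons against the difference in PSI, knockdown minus control, for Srrm4 (n = 210), Zfp871 (n = 210), Mbnl1 and Mbnl2 (n = 193) and Nacc1 (n = 193). The curves for Srrm4 and Zfp871 knockdown lie to the left, with medians of -2.8 points each, and those for Mbnl1 and Mbnl2 and for Nacc1 knockdown pass close to 0, with medians of -0.0204 and 0.134.

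Set directly against the Srrm4 knockdown, the Zfp871 knockdown had no called microexon by the quasi-likelihood test, and no exon of any length (0% in either direction). At an unadjusted p under 0.05, 24 microexons were higher (11.4%) and 7 lower (3.33%), against 2.08% and 3.25% of all exons. The likelihood ratio test called 14 higher and 2 lower, against 0.39% and 0.444% of all exons, and DESeq2 called 2 higher (0.952%) and 0 lower, against 0.0148% and 0.00493% of all exons. By the rule of groups apart, 25 microexons (11.9%) were higher in the Zfp871 knockdown and 8 (3.81%) lower, against 1.53% and 2.66% of all exons, and the median difference was 0.66 points. Of the 300 microexons of 16 to 27 nt, 10.7% were higher and 3.67% lower.

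The exons given next were chosen after their values were seen. For Spna2 the Zfp871 knockdown libraries had 70.1 and 68.8 and the Srrm4 knockdown libraries 44 and 39.6, with controls at 73.3 and 71.3. The 9-nt exon of Fryl, a furry-like scaffold protein, had 77.7 and 70.8 against 44.4 and 43.5, with controls at 82.8 and 85.6. Chchd3 had 97 and 95.9 against 81.7 and 78.5, with controls at 99 and 99.1. In these 3 the mean of the Zfp871 knockdown lay within 10 points of the control mean. The opposite order was seen in Agrn, the synapse-organising proteoglycan agrin, whose 12-nt exon had 23.6 and 15.7 in the Zfp871 knockdown against 32.2 and 30.9 in the Srrm4 knockdown, with controls at 41.4 and 43.5.

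The Mbnl and Nacc1 experiment has 1 library per group, so its differences have no replicate check and no p-value. Intervals in parentheses are 95% exact Clopper-Pearson intervals and cover counting error only, since reads are not independent molecules. A microexon was counted when the difference was at least 20 points and the intervals did not overlap. After knockdown of Mbnl1 and Mbnl2, 9 of 193 microexons (4.66%) were lower and 2 (1.04%) higher, against 0.676% and 0.415% of all 18785 exons compared. After Nacc1 knockdown 5 (2.59%) were lower and 0 higher, against 0.751% and 0.256%. Of 303 microexons of 16 to 27 nt, 3.96% were lower and 1.65% higher after Mbnl1 and Mbnl2 knockdown. After Nacc1 knockdown 4.62% of those were lower and 0.66% higher.

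MBNL proteins bind YGCY motifs and can promote or repress an exon according to where they bind. The 3-nt exon of Cyth1, an exchange factor for ARF GTPases, was at 25.7 (14.6 to 40.3) after Mbnl1 and Mbnl2 knockdown and at 86 (75.7 to 93.6) in the control. The 12-nt exon of Ank2 was at 3.87 (0.947 to 8.59), against 57.3 (48 to 65.7). Celsr3, an atypical cadherin of axon guidance, had its 15-nt exon at 43.4 (34.1 to 53.8), against 96.3 (91 to 99). These were the largest differences below the control, of -60.3, -53.4 and -52.9 points. The other lower ones were in Slc12a7, a potassium chloride cotransporter (15 nt, 30.5 against 73.5, on 20 and 31 reads), Tead1, a transcription factor of the Hippo pathway (12 nt, 58.4 against 96), Ap1b1, a subunit of the clathrin adaptor AP1 (9 nt, 14.3 against 46.8), Incenp, a chromosomal passenger protein (12 nt, 19.3 against 47.4), Mtss1l (9 nt, 38 against 59.4) and Atp2c1, a Golgi calcium pump (12 nt, 21.2 against 42.2).

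The 2 higher microexons differed by 61.5 and 58.2 points. Dclk2, a microtubule-associated kinase, had its 13-nt exon at 69.2 (56.4 to 80.4) after Mbnl1 and Mbnl2 knockdown and at 7.76 (3.28 to 14.2) in the control. Tacc2, a centrosomal coiled-coil protein, had its 9-nt exon at 68.3 (62 to 74.3), against 10 (6.65 to 14.8). In the Nacc1 knockdown these 2 stood at 24.7 (17 to 34) and 23.6 (18.6 to 29.2), with differences of 16.9 and 13.5 points that are below the size rule. The length of the Dclk2 exon is not divisible by 3.

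Under Nacc1 knockdown, Tead1 was at 54.3 (47.5 to 61.1), against 96 (92.7 to 98.1) in the control. Celsr3 was at 62.4 (53.1 to 71.5), Ank2 at 27.5 (19.2 to 36.6) and Ap1b1 at 25.6 (20.3 to 31.3), each below its control. Mbnl1 itself stood at 82.7 CPM in the Nacc1 knockdown, against 124 CPM in the control, and Mbnl2 at 65.6 against 65.7 CPM; whether this bears on the shared exons was not tested. Both knockdowns are set against the same control library.

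**Figure D5:**
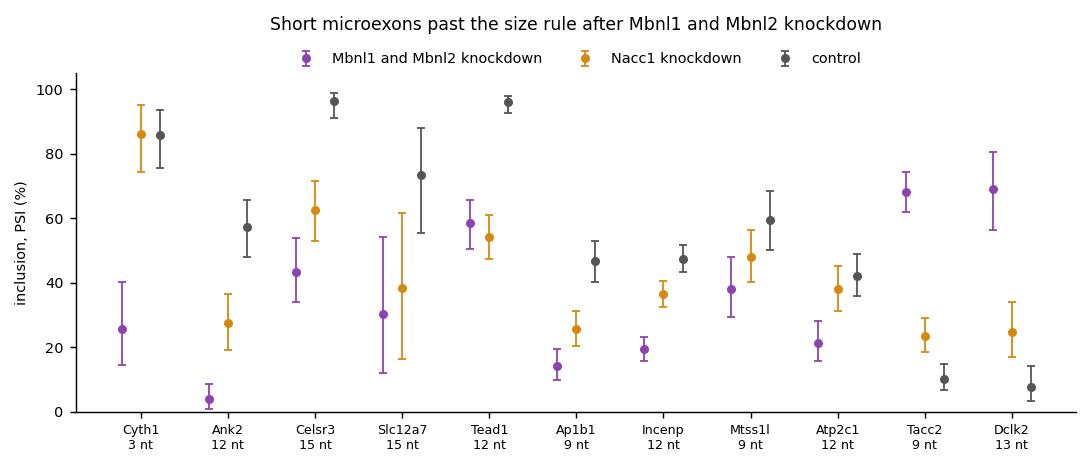
Inclusion (PSI, %) of the 11 microexons past the size rule after Mbnl1 and Mbnl2 knockdown, with 1 library per group as a point and its 95% exact interval as a bar, drawn from left to right for the depletion of Mbnl1 and Mbnl2, that of Nacc1, and the control. Dclk2 and Tacc2 at the right are the 2 with inclusion above the control after Mbnl1 and Mbnl2 knockdown (69.2 and 68.3, against 7.76 and 10).

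The differences in the Mbnl and Nacc1 experiment were set beside those of the Srrm4 and Zfp871 experiment. Over 172 microexons tested in both, the differences under Mbnl1 and Mbnl2 knockdown and under Srrm4 knockdown had a Pearson r of 0.032 and a Spearman coefficient of 0.0709, given as a description of exons that share no library. Tead1 had 91.6 and 96.9 in the Srrm4 knockdown, against 98 and 97.3 in its controls, and Cyth1 88.1 and 92.2, against 79 and 88.5. Neither of the Vav2 exons differed by 5 points after Mbnl1 and Mbnl2 knockdown, at 83.3 and 86.3, against 82.7 and 85.3. Atp2c1 was lower in both settings, at 19.4 and 20.2 after Srrm4 knockdown, against 42.4 and 46.6.

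Of the 172, 43 lay within 5 points of the control in all 4 knockdowns. The best covered of them was the 3-nt exon of Gnas, the stimulatory G protein alpha subunit, at 6.95 and 6.67 after Srrm4 knockdown, 8.8 and 9.84 after Zfp871 knockdown, and 6.97 and 7.7 in the controls, on 6548 and 5659 control reads. Immt, which encodes mitofilin of the mitochondrial inner membrane, had its 15-nt exon at 95.5 and 95.7, and 94.6 and 93.8, against 97.3 and 97.9. Nudt5, an ADP-sugar hydrolase, had its 9-nt exon at 96.5 and 96.3, and 96.2 and 96.6, against 95.5 and 97.9. The 12-nt exon of Kdm1a was at 1.07 and 0.86, and 0.66 and 1.16, against 2.73 and 5.55, so every knockdown library of that experiment lay below both controls. All 4 sit near an end of the PSI scale, where a limit of 5 points allows a large relative difference.

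The authors' deposited table marks exons as differentially spliced by a rule that the sources used here do not give. For Srrm4 knockdown the authors' deposited table marks 54 of the tested microexons, of which 53 were lower and 1 higher by the PSI computed here, and 41 for Zfp871 knockdown, all lower. All 54 and all 41 also stood apart by at least 10 points. For the Mbnl1 and Mbnl2 knockdown the authors' deposited table marks 25 (17 lower and 8 higher) and for Nacc1 knockdown 15 (8 lower and 7 higher). Of those in the authors' deposited table, 10 of the 25 and 5 of the 15 passed the size rule used here.

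The levels of the host genes were tested as well. Of 318 host genes tested, 11 were lower and 4 higher after Srrm4 knockdown, against 3.29% lower and 1.41% higher among 12378 genes, and 13 were lower and 4 higher after Zfp871 knockdown, against 2.14% and 0.751%. Among hosts of the named microexons, Snap91 fell to 54.4 and 57.9 CPM in the Srrm4 knockdown, against 86.9 and 103 CPM in the controls (log2 fold change -0.76, adjusted p = 0.0282). Cdon rose to 33.4 and 29.1 CPM, against 12.8 and 14.5 CPM (log2 fold change 1.20, adjusted p = 0.0222), and Tmco4 to 20.4 and 16.8 CPM, against 10.6 and 8.97 CPM (0.93, adjusted p = 0.0357). Vav2 differed by 0.07 in log2 (adjusted p = 0.823) and Pacsin2 by -0.04 (adjusted p = 0.787), so the Vav2 and Pacsin2 exons fell without a detected change in their genes. Under Zfp871 knockdown L1cam fell to 239 and 241 CPM, against 376 and 428 CPM (log2 fold change -0.74, adjusted p = 0.0239). These counts depend on the whole set of libraries. After Srrm4 knockdown 4 hosts were called without Srrm4 knockdown library a, 1 without control library a, and 0 without any of the other 4 libraries. After Zfp871 knockdown 9 were called without either Srrm4 knockdown library, 1 without control library a, and 0 without any of the other 3. In the experiment with 1 library per group, 1 of 323 hosts (Chchd3, log2 fold change -1.26) was lower by at least 1 on the log2 scale after Mbnl1 and Mbnl2 knockdown and 0 higher, against 0.259% and 0.758% of genes, and 3 were lower and 0 higher after Nacc1 knockdown, against 2.97% and 0.406%.

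Of 34 genes listed as regulators or targets of the knockdowns, 29 were tested in the Srrm4 and Zfp871 experiment. After Srrm4 knockdown 4 fell and none rose: Srrm4, its paralogue Srrm3 (24.2 and 23.4 CPM, against 35.6 and 37.5 CPM, log2 fold change -0.62, adjusted p = 0.0341), and the neuronal RNA-binding proteins Elavl3 (-0.49, adjusted p = 0.0327) and Elavl4 (-0.89, adjusted p = 0.0184). SRRM3 also promotes microexon inclusion, and its part in the differences after Srrm4 knockdown was not tested. After Zfp871 knockdown 3 fell and none rose: Zfp871, Nova1 (25.8 and 29.7 CPM, against 47.8 and 58.5 CPM, log2 fold change -0.94, adjusted p = 0.0439) and Celf4 (21.8 and 17.9 CPM, against 45.8 and 38.6 CPM, -1.09, adjusted p = 0.0407). Srrm3 stood at 30.8 and 35 CPM there (log2 fold change -0.15, adjusted p = 0.466). The repressor Ptbp1 was not called in these edgeR quasi-likelihood fits, which have no term for the column letter. It stood at 801 and 743 CPM in the Srrm4 knockdown (adjusted p = 0.931), against 787 and 738 CPM in the controls. In the Zfp871 knockdown it stood at 909 and 1010 CPM (adjusted p = 0.123). These calls also depend on the whole set of libraries. After Srrm4 knockdown 2 of the list were called without Srrm4 knockdown library a (Srrm4 and Elavl4), 1 without control library a (Srrm4), and 0 without any of the other 4 libraries. After Zfp871 knockdown 4 were called without either Srrm4 knockdown library (Zfp871, Nova1, Celf4 and Ptbp2), 1 without control library a (Zfp871), and 0 without any of the other 3. Over all genes tested, 582 were called after Srrm4 knockdown and 358 after Zfp871 knockdown, with 0 to 180 and 0 to 211 when 1 library was left out.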

How the data were processed

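PolyA RNA of 9 N2A libraries in 6 groups was analysed. The submitters' processing notes name build mm9, CASAVA 1.8 and edgeR; RNA came from either of a pair of extraction kits, per the labels, which do not tell which library had which. The sources used here give neither the vast-tools version nor the read counter. Per the file headers, the splicing tables hold for each library a text cell ending in corrected inclusion and exclusion reads; raw read counts per gene are deposited beside them, and the authors' deposited PSI, in percent, has 1 value per condition. From these cells PSI was recomputed, and 23 columns of per-sample values were not used.

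Reads were rounded and fitted with the edgeR 4.0.16 quasi-likelihood test (R 4.3.3) over all 6 libraries of the Srrm4 and Zfp871 experiment: a coefficient per library, an inclusion coefficient per group, 1 dispersion without trend and a quasi-dispersion per exon. All 20266 exons with at least 10 reads in every library and a PSI of 2 to 98 in at least 1 entered, and p-values were adjusted over them (Benjamini-Hochberg, threshold 0.05, plus at least 10 points in mean PSI). The test was tried on simulated data first. Gene counts of all genes were tested with edgeR (filterByExpr, TMM), and log2 fold changes and CPM come from that fit; 1114 entries without counts were left out. Asap2 was not among the gene symbols with counts. In the Mbnl and Nacc1 experiment only the size rule was applied (for genes, a change of 1 or more on the log2 scale with prior count 2, where either library had 50 or more counts). Alternatives used DESeq2 1.42.0, limma 3.58.1 and scipy 1.17.1.

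The microexons and the role, regulator and marker lists were chosen with earlier results of these data known. Named by rule were called microexons, those past the size rule, the 10 largest under Zfp871 knockdown, up to 6 per role list that stood apart after Srrm4 knockdown, the lowest and highest control PSI and 4 well covered ones within 5 points of the control in all knockdowns; others are said to be chosen after their values were seen. The column letter is no term of the fits, since no label ties it to a day or culture. A search of intronic motifs was not made, since no mm9 genome was used here. A few genes and their microexons are not reported here, although they stay in the counts.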

Additional observations from a re-analysis of the deposited data

How the results depend on the processing

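The count of 9 microexons called after Srrm4 knockdown depended on the test: 57 by the likelihood ratio test, 25 by DESeq2, 5 with a dispersion trend on abundance, 5 by limma on the logit of PSI (offset 1), and 1 from the 4 libraries of the contrast alone, which leave fewer samples for the spread. It was 9 with no minimum difference, 7 with at least 20 reads and 6 with no filter on PSI, and 0 to 2 with 1 library left out. All 9 stayed lower in every one of these fits, and 9 of them were called by DESeq2 and by the likelihood ratio test. Of the 5 called by limma, 3 were among the 9. For Zfp871 knockdown against control the count of 0 became 36 by the likelihood ratio test and 9 by DESeq2; against Srrm4 knockdown it became 16 and 2. The other alternatives left both at 0, save the replicate block below, and leaving out 1 library gave 0 to 0 in both. The cause of these differences between tests was not tested.

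With a replicate block by column letter, 13 microexons were called after Srrm4 knockdown, 1 after Zfp871 knockdown and 0 between the knockdowns. The same replicate block raised the host genes called to 124 (Srrm4) and 116 (Zfp871) of 318. Over all 12378 genes it called 4565 and 3854, so the rise was not particular to hosts. Of 29 tested regulators, the 4 and 3 that fell became 13 and 10, with 1 and 2 higher. Of 18 tested markers, the 3 and 3 that fell became 8 and 10, with 1 and 1 higher. Under Zfp871 knockdown the edgeR quasi-likelihood fit with this block called Srrm4 lower (log2 fold change -0.72, adjusted p = 6.28e-05) and Acta2 higher (2.93, adjusted p = 5.61e-12). It also called Ptbp1 higher (0.33, adjusted p = 0.00373) and Ptbp2 lower (-0.73, adjusted p = 3.39e-06). Deviations of same-letter libraries from their group means correlated by 0.696 to 0.814 over genes and by 0.0255 to 0.0418 over exon PSI, a hint from the data that the letter pairs the gene counts; the labels tie it to nothing, and there are only 2 letters. Host genes called after Srrm4 knockdown were 15, with 25 when no filter on low counts was used and 61 by DESeq2. Over all genes the same settings called 582 of 12378, 782 of 16027 and 1754 of 12378. After Zfp871 knockdown the host genes called were 17, with 20 unfiltered and 54 by DESeq2. Over all genes those settings called 358 of 12378, 462 of 16027 and 1347 of 12378.

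Past the size rule, 11 microexons under Mbnl1 and Mbnl2 knockdown became 19 at 10 points, 8 at 30 points, 10 with at least 20 reads and 10 by Fisher's exact test on the reads, which compares those libraries only. The 5 under Nacc1 knockdown became 14 at 10 points and 3 at 30 points, and stayed 5 otherwise. An alternative on uncorrected inclusion and exclusion reads was not run, since the cells used here give corrected reads only. The count of groups apart without each library was added after seeing the data: 60 to 69 (Srrm4) and 50 to 62 (Zfp871). At the median of 104 to 154 reads per tested microexon, small differences cannot be seen, and 161 microexons were too shallow to follow at all.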
